A study of Mus musculus with 9 samples.

Results

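The enzymes that break down ethanol, acetaldehyde and acetate were examined in the livers of ethanol-fed mice. The 10 genes *Adh1*, *Adh4*, *Adh5*, *Aldh2*, *Aldh1a1*, *Aldh1b1*, *Aldh3a2*, *Cyp2e1*, *Acss2* and *Acss1* were taken by gene name from a deposited table of 55401 gene rows, and each name was found in it. Of these, 9 had a mean of at least 0.5 FPKM (fragments for each kilobase of transcript, relative to the size of the library) and were tested among 12350 genes that met this minimum, and *Acss1* was below it.

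Ethanol is oxidized to acetaldehyde in the cytosol of hepatocytes by alcohol dehydrogenases and in the endoplasmic reticulum by the cytochrome P450 enzyme CYP2E1, whose protein is known to be stabilized by ethanol. Aldehyde dehydrogenases, above all the mitochondrial enzyme ALDH2, oxidize acetaldehyde to acetate, and both steps by dehydrogenases reduce NAD. Acetyl-CoA synthetases couple acetate to coenzyme A. The oxidizing enzymes are expressed mainly in hepatocytes, with CYP2E1 concentrated around the central vein.

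RNA was measured in 9 whole livers of C57BL/6 female mice aged 10 to 12 weeks. The WT group (n = 5) had the genotype Ncf1-fl/fl, and the myeloid cell knockout group (n = 4), named NKO by the submitters, had the genotype Ncf1-fl/fl-Lyz-Cre+, so both groups carried floxed *Ncf1* and only NKO carried Lyz-Cre. All mice had 5 days of Lieber-DeCarli liquid diet for acclimatization, 10 days of ethanol diet at 5% (v/v) and, on day 11, a gavage of ethanol at 5 g/kg, with collection 9 hours later. The comparison asked whether loss of *Ncf1*, a subunit of the phagocyte NADPH oxidase, in cells of the myeloid lineage altered the RNA of enzymes that hepatocytes express. Lyz-Cre is active in myeloid cells, whereas most RNA of a liver comes from hepatocytes. All livers analysed here were ethanol-fed, so no effect of ethanol itself was measured, and in whole liver fewer cells of a type and less RNA per cell cannot be told apart.

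The 4 NKO libraries are named NKO2, NKO3, NKO4 and NKO5 and the 5 WT libraries WT1, WT2, WT3, WT4 and WT6, as in the table. Depth, recovered from the steps between low FPKM values, was about 18.7 to 20.6 M fragments (M, mega) in the 4 NKO libraries, WT1 and WT2, and about 15.7 to 16.5 M in WT3, WT4 and WT6. *Ncf1* itself was at 0.333 to 0.885 FPKM in NKO and 0.366 to 1.825 FPKM in WT, and these ranges overlapped (limma log2 fold change −0.74, adjusted p = 0.890). The hepatocyte markers found, 7 of 8, summed to 47260 to 65636 FPKM in every library. NKO3 and WT2 stood apart from the other 7 libraries on the first principal component over all tested genes (27.6% of the variance), with scores of 53.8 and 39.6 against −31.4 to 0.65. One of these livers belongs to each group, so values that rest on them are also given without them.

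To set the sequence in front of genes that were highest in the same 2 livers beside that of genes that were not, the 150 bases before the RefSeq transcription start (GRCm38.p6) were read for 6 members. *Adh1*, *Adh4*, *Aldh3a2* and *Cyp2e1* had their highest levels in NKO3 and WT2, *Adh5* varied least of the alcohol dehydrogenases and *Acss2* followed a different course. Capitals mark matches, on either strand, to the GC box GGGCGG, the CCAAT box CCAAT, the TATA box TATAAA, the E-box CACGTG or the nuclear receptor half-site AGGTCA. These motifs were chosen after the values were seen, and none of them contains another. A table of RefSeq promoters held 9 of the 10 members and had no entry for *Aldh2*.
Adh1, chr3:138277435-138277584, plus strand: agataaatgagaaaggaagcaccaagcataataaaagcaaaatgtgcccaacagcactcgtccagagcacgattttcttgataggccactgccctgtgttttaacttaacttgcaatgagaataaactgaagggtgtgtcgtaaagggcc
Adh4, chr3:138415347-138415496, plus strand: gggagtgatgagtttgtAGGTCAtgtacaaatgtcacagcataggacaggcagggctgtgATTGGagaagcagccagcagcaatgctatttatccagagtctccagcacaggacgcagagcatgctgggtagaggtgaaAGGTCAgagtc
Adh5, chr3:138442943-138443092, plus strand: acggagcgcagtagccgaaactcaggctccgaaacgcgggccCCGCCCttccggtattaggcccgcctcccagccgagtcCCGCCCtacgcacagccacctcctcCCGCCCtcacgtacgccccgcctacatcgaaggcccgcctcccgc
Aldh3a2, chr11:61267187-61267336, minus strand: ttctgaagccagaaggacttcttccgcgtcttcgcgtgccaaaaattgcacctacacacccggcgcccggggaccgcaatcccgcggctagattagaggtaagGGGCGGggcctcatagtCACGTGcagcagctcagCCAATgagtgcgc
Cyp2e1, chr7:140763669-140763818, plus strand: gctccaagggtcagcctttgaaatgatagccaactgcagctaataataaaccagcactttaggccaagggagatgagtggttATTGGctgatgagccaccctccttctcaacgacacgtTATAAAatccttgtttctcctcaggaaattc
Acss2, chr2:155517893-155518042, plus strand: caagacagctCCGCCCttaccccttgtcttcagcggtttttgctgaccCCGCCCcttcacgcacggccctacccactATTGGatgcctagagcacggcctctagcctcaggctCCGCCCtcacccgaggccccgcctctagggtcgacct
The *Adh5* window shown held 3 GC boxes, had 71.3% G and C and matched no other motif searched. RefSeq lists 2 starts for *Adh5*, and the window of the other, chr3:138437050-138437199, had 51.3% G and C and matched none of the 5 motifs. The *Adh1* window had 42.7% G and C and also matched none. *Adh4* held 2 half-sites, at −133 and −11 from the transcription start, and a CCAAT box at −90. *Cyp2e1* alone of these 6 windows matched the TATA box, at −31, and *Aldh3a2* alone matched the E-box, at −30. A CCAAT box was also found in *Cyp2e1*, at −68, and in *Aldh3a2*, at −13. *Aldh3a2* held a GC box as well, at −47. *Acss2* held 3 GC boxes and a CCAAT box. Of 32851 mouse promoter windows of the same length, 28.6% held the GC box, 24.5% the CCAAT box, 7.57% the TATA box, 4.30% the E-box and 8.58% the half-site. Of the 4 windows shown for genes that were highest in NKO3, 3 held a CCAAT box and *Adh1* held none of the 5 motifs. A CCAAT box was also in *Acss2* and in 1 of the 2 windows of *Aldh1a1* (not shown), genes that were highest in NKO4. A match describes letters, not a bound site.

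The 3 alcohol dehydrogenase genes lie in a row on the plus strand of chromosome 3 (GENCODE M21, GRCm38), *Adh1* at chr3:138260991-138290698, *Adh4* at chr3:138415466-138430892 and *Adh5* at chr3:138443093-138455499, with gaps of 124.8 kb and 12.2 kb. The RefSeq starts used for *Adh1*, *Adh4*, *Aldh3a2*, *Cyp2e1* and *Acss2* lie inside the gene spans of this annotation. For *Adh1* and *Aldh3a2* the whole window does. *Aldh2* is at chr5:121566027-121593824 (minus strand), *Aldh1a1* at chr19:20492715-20643465 (plus), *Aldh1b1* at chr4:45799022-45804604 (plus), *Aldh3a2* at chr11:61223417-61267464 (minus) and *Cyp2e1* at chr7:140763739-140774987 (plus). *Acss2* at chr2:155517948-155585724 (plus) and *Acss1* at chr2:150618105-150668500 (minus) share a chromosome.

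No enzyme gene was called higher or lower in ethanol-fed NKO than in WT livers. By limma 0 of 9 passed at an adjusted p under 0.05, where 0.0081% of all tested genes (1 gene) did, and 0 of 9 passed at an unadjusted p under 0.05, where 5.9% of all tested genes did. The rule stated in the paper is a log2 fold change over 1 or under −1 with an unadjusted p under 0.05. Applied here to the limma values rather than the paper's edgeR estimates, it also took 0 members against 0.907% of all tested genes. The groups overlapped for each member, whereas 2.21% of all tested genes had groups that did not. All 9 fold changes were positive, with a median of 0.16 on the log2 scale against 0.00 over all tested genes, of which 50.5% were positive, but the direction of 5 of the 9 turned when NKO3 alone was left out. Without NKO3 the median was −0.00.

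**Figure D1:**
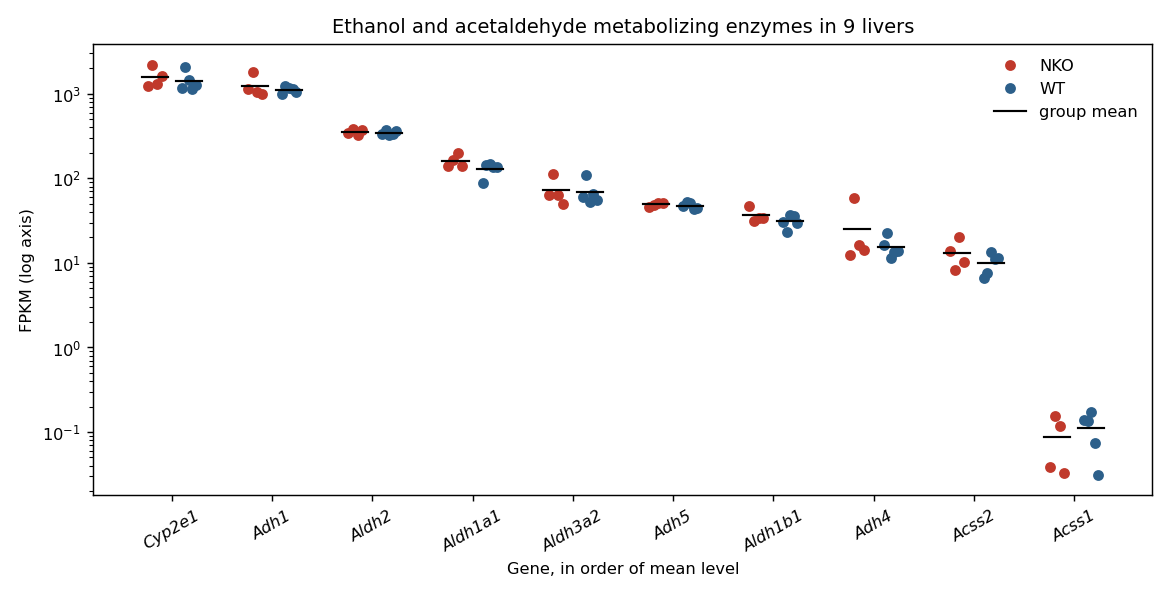
FPKM of each member (log axis) in the 4 NKO and 5 WT libraries, a point for each library and a line at the arithmetic mean of each group. *Cyp2e1* and *Adh1* sit near 1000 FPKM or above in every library, *Acss1* below 0.2 FPKM, and the groups overlap for each gene.

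The levels, which FPKM gives per length, fell in a stable order for the most abundant members. *Cyp2e1* was the 48th most abundant gene of the table by mean FPKM, *Adh1* the 60th and *Aldh2* the 132nd. *Cyp2e1* exceeded *Adh1*, *Adh1* exceeded *Aldh2*, *Aldh2* exceeded *Aldh1a1* and *Aldh1a1* exceeded *Aldh3a2* in 9 of 9 libraries each. *Aldh3a2* was above *Adh5*, *Adh5* above *Aldh1b1* and *Aldh1b1* above *Adh4* in 8 of 9 libraries each. *Adh4* was above *Acss2* in 6 of 9, so these neighbours were not separated by their spread. *Acss2* exceeded *Acss1* in 9 of 9 libraries, and the ratio of their mean levels was 114.

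*Adh1* encodes the main ethanol-oxidizing alcohol dehydrogenase of mouse liver. Its level was 1129, 1797, 1043 and 1004 FPKM in NKO2 to NKO5 and 999.97, 1227, 1154, 1138 and 1055 FPKM in WT1, WT2, WT3, WT4 and WT6. NKO3 was far above all other livers, WT2 came next, and the other 3 NKO values lay within the WT range. The group means were 1243 ± 373 FPKM (SD, n = 4) and 1115 ± 88.8 FPKM (SD, n = 5), with a log2 fold change of 0.12 (standard error 0.17, 95% interval −0.26 to 0.50, limma adjusted p = 0.942, two-sided exact permutation p = 0.738). Without NKO3 it was −0.07, and without NKO3 and WT2 it was −0.04.

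*Adh4* encodes an alcohol dehydrogenase that also acts on retinol and has a lower affinity for ethanol than ADH1. It had 12.4, 57.8, 16.4 and 14.1 FPKM in NKO2 to NKO5 and 16.1, 22.5, 11.5, 13.4 and 13.7 FPKM in the WT libraries in the same order as above. A single liver, NKO3, set the NKO mean of 25.2 ± 21.8 FPKM (SD, n = 4), and WT2 was the next highest. The log2 fold change of 0.43 (standard error 0.42, 95% interval −0.51 to 1.36, limma adjusted p = 0.924, exact permutation p = 0.516) became −0.08 without NKO3 and 0.07 without NKO3 and WT2. Among all members *Adh4* had the widest spread, with a coefficient of variation of 74.0% over the 9 livers.

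*Adh5* encodes the class III enzyme, which oxidizes the glutathione adduct of formaldehyde and has little activity with ethanol. It was at 46.3, 48.6, 51.1 and 51.7 FPKM in NKO and 46.5, 52.3, 51.0, 43.9 and 44.8 FPKM in WT. No liver stood apart, NKO3 included, and the coefficient of variation was 6.56%. Only 1.67% of all tested genes had a smaller SD on the log2 scale over the 9 livers. The log2 fold change was 0.05 with a 95% interval of −0.15 to 0.26 (limma adjusted p = 0.956, exact permutation p = 0.429), which on the linear scale spans 0.899 to 1.198 times the WT level.

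*Cyp2e1*, the ethanol-inducible cytochrome P450 of the microsomal pathway, had 1249, 2217, 1294 and 1606 FPKM in NKO2 to NKO5 and 1161, 2087, 1470.2, 1151 and 1264 FPKM in WT. NKO3 and WT2 were the highest livers of their groups, and the remaining livers of the groups overlapped. The log2 fold change was 0.16 (standard error 0.22, 95% interval −0.34 to 0.65, limma adjusted p = 0.941, exact permutation p = 0.516), −0.02 without NKO3 and 0.13 without both high livers. Of 50-base windows in its longest coding transcript, 4.76% also occurred in transcripts of other genes, mostly *Fcho2*, so a small part of its reads may not be unique to it.

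*Aldh2* encodes the mitochondrial enzyme with the highest affinity for acetaldehyde. Its levels were 344, 379, 326 and 370.3 FPKM in NKO and 336, 376, 326, 338 and 363 FPKM in WT, and the highest values of both groups were again in NKO3 and WT2. It was nonetheless the steadiest member, since the highest liver was 1.16 times the lowest and only 0.972% of all tested genes had a smaller SD on the log2 scale. NKO and WT differed by 0.03 on the log2 scale, with a 95% interval of −0.17 to 0.23 (limma adjusted p = 0.976, exact permutation p = 0.627), or 0.890 to 1.17 times the WT level. It was −0.00 without NKO3 and 0.03 without NKO3 and WT2.

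*Aldh1a1* encodes a cytosolic aldehyde dehydrogenase that makes retinoic acid from retinal and also oxidizes acetaldehyde. It had 139, 163, 199 and 142 FPKM in NKO2 to NKO5 and 88.1, 144, 149, 135 and 137 FPKM in WT. WT1 was the lowest liver and NKO4 the highest, and the other 7 lay between 135 and 163 FPKM. This gave a log2 fold change of 0.31 (standard error 0.17, 95% interval −0.08 to 0.70, limma adjusted p = 0.890, exact permutation p = 0.143), the smallest exact p among the members. Leaving out WT1 lowered it to 0.17 and leaving out NKO4 to 0.20. It shares 6.54% of its 50-base windows with *Aldh1a7*, a near copy, so reads from these stretches may be split between both genes.

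*Aldh1b1*, a second mitochondrial aldehyde dehydrogenase, had 46.6, 31.0, 34.0 and 34.3 FPKM in NKO and 30.3, 23.2, 36.6, 35.9 and 29.8 FPKM in WT. Unlike the genes above it was lowest in WT2 and highest in NKO2. Its log2 fold change was 0.23 (standard error 0.17, 95% interval −0.14 to 0.60, limma adjusted p = 0.900, exact permutation p = 0.278), 0.10 without NKO2 and 0.13 without WT2.

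*Aldh3a2* encodes the fatty aldehyde dehydrogenase of the endoplasmic reticulum, which acts on long-chain aldehydes. It was at 64.2, 113, 62.8 and 50.1 FPKM in NKO and 60.9, 109, 53.0, 64.6 and 55.8 FPKM in WT. NKO3 and WT2, a liver of each group, exceeded 100 FPKM and no other liver exceeded 65 FPKM. The log2 fold change was 0.06 (standard error 0.27, 95% interval −0.53 to 0.66, limma adjusted p = 0.982, exact permutation p = 0.762) and 0.01 without these livers.

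**Figure D2:**
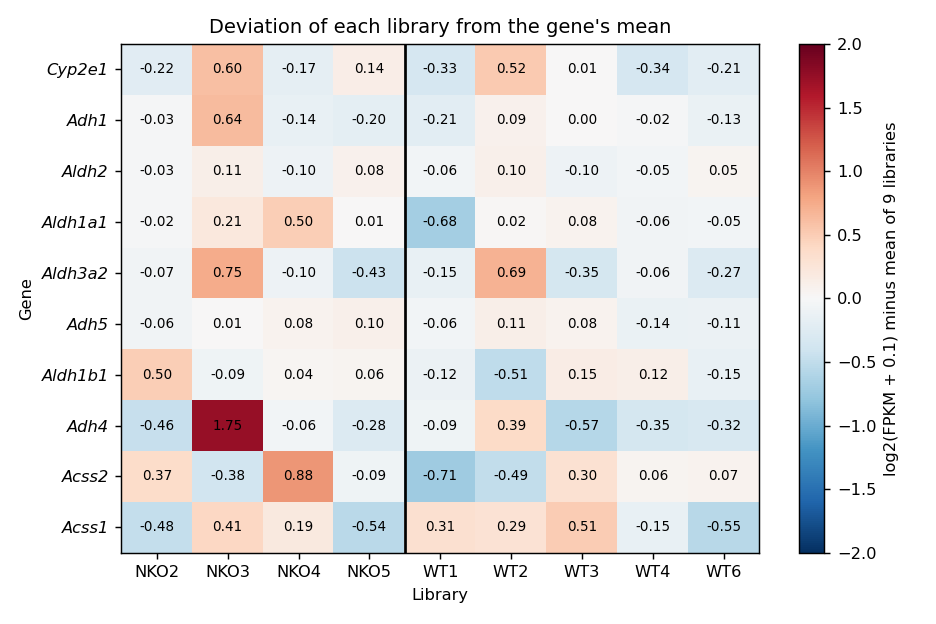
Difference of each library from the gene's mean over 9 libraries, on the log2(FPKM + 0.1) scale, with members in rows by mean level and NKO libraries left of the black line. NKO3 is above the mean for 8 of the 10 genes, with its largest value for *Adh4*, and *Adh5* and *Aldh2* stay within 0.15 of 0 in every library.

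*Acss2* encodes the acetyl-CoA synthetase of cytosol and nucleus, a known target of the sterol regulatory element-binding proteins (SREBP). Its level was 14.0, 8.27, 19.99 and 10.2 FPKM in NKO2 to NKO5 and 6.57, 7.65, 13.3, 11.3 and 11.3 FPKM in WT. NKO4 was highest and WT1 lowest, and NKO3 and WT2 were on the low side here. The log2 fold change was 0.35 (standard error 0.29, 95% interval −0.29 to 0.99, limma adjusted p = 0.902, exact permutation p = 0.317) and 0.46 without NKO3 and WT2. It was 0.12 without NKO4, 0.21 without WT1 and 0.54 without NKO3. Among the 6 libraries of higher depth it was 0.80 (limma adjusted p = 0.897, unadjusted p = 0.0582), where WT1 and WT2, the lowest WT livers, formed the WT side alone.

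*Acss1*, the mitochondrial acetyl-CoA synthetase, was near the limit of detection. It had 0.0381, 0.155, 0.119 and 0.0327 FPKM in NKO and 0.139, 0.136, 0.175, 0.0735 and 0.0311 FPKM in WT. These values stand for about 1.79 to 11.4 fragments a library if all fell on its longest transcript, so a difference was not detectable at this depth (exact permutation p = 0.548). Levels in both groups spanned the same range.

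In the 6 libraries of higher depth, 0 of 9 members passed at an unadjusted p under 0.05, where 5.34% of all tested genes did. The log2 fold changes there were 0.50 for *Aldh1a1*, 0.44 for *Aldh1b1*, 0.12 for *Adh1*, 0.09 for *Adh4*, 0.00 for *Adh5*, −0.00 for *Aldh2*, −0.01 for *Cyp2e1* and −0.23 for *Aldh3a2*. The median over all tested genes was −0.11 in this subset. The 3 libraries of lower depth are all WT, so depth and group cannot be told apart beyond this subset.

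**Figure D3:**
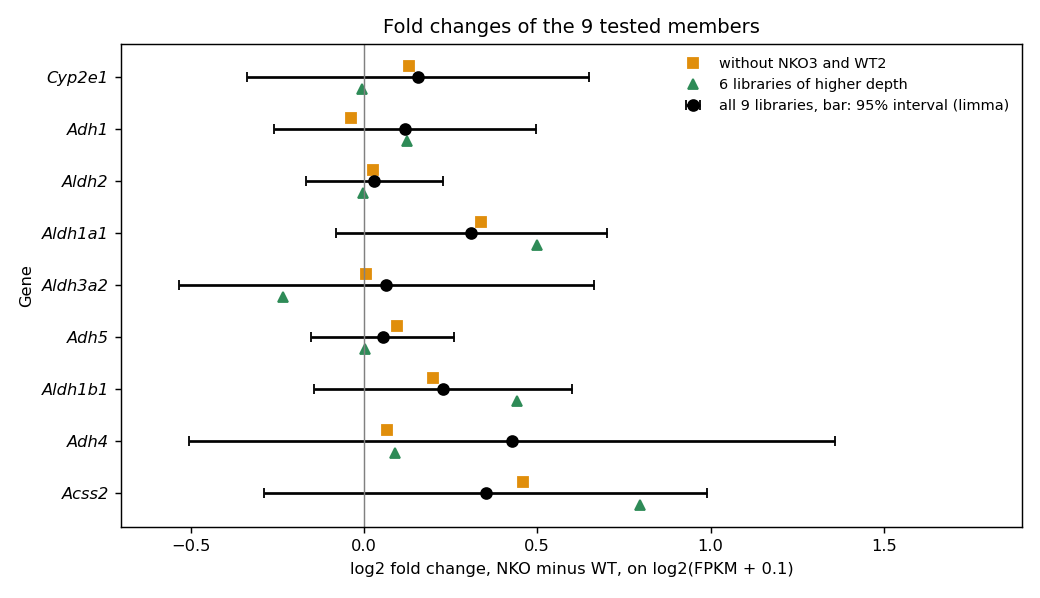
Log2 fold change of NKO minus WT for the 9 tested members, with limma's 95% interval over all 9 libraries (black), and the values without NKO3 and WT2 (squares) and in the 6 libraries of higher depth (triangles). Each interval includes 0, and those of *Aldh2* and *Adh5* are the narrowest.

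For abundant genes the ratio of 2 enzymes within a library hardly depends on its scaling. The log2 ratio, on log2(FPKM + 0.1), of *Aldh2* to *Adh1*, the acetaldehyde-consuming over the acetaldehyde-producing dehydrogenase, was −1.77 ± 0.34 (SD, n = 4) in NKO and −1.68 ± 0.12 (SD, n = 5) in WT (difference −0.09, or 0.06 without NKO3 and WT2, exact permutation p = 0.675 over all libraries). Its lowest value, a linear ratio of 0.211, was in NKO3, and in the other libraries it was 0.282 to 0.369. The log2 ratio of *Cyp2e1* to *Adh1*, the microsomal over the cytosolic route, was 0.36 ± 0.23 in NKO and 0.32 ± 0.28 in WT (difference 0.04, or 0.17 without NKO3 and WT2, exact permutation p = 0.817 over all libraries). *Cyp2e1* exceeded *Adh1* in each library, by 1.01 times in WT4 to 1.70 times in WT2. The log2 ratio of *Acss2* to *Acss1* was 0.54 higher in NKO (exact permutation p = 0.262). As *Acss1* is near the added 0.1 FPKM, this value depends on that constant and on scaling, and it was 0.40 with 0.5 FPKM added. It was 0.90 without NKO3, 0.34 without WT1 and 1.203 in the 6 libraries of higher depth. After adjustment over the 3 ratios the p-values were 0.786 to 0.817.

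The livers NKO3 and WT2 had the highest levels of 5 of the 9 tested members, *Adh1*, *Adh4*, *Aldh2*, *Aldh3a2* and *Cyp2e1*, and such a pattern held for 19.0% of all tested genes (2349 of 12350). They were the lowest 2 livers for 0 members and for 5.55% of all tested genes. Other genes moved with them. *Glul*, the glutamine synthetase of hepatocytes next to the central vein, was at 326 FPKM in NKO3 and 356 FPKM in WT2 against 70.4 to 198 FPKM in the other livers. *Cps1* and *Arg1*, urea cycle enzymes of periportal hepatocytes, were lowest in these livers, at 356 and 368 FPKM against 598 to 703 FPKM for *Cps1* and at 361 and 467 FPKM against 738 to 1172 FPKM for *Arg1*.
Over whole marker lists, NKO3 and WT2 were the 2 highest livers for 2 of 9 tested pericentral markers, one of which is *Cyp2e1* itself. They were the 2 lowest for 4 of 10 periportal markers. For these and the marker counts below, the shares over all tested genes were 19.0% for the 2 highest and 5.55% for the 2 lowest livers. The summed level of the pericentral list was 2575 to 3436 FPKM in NKO and 2111 to 3593 FPKM in WT. *Cyp2e1* itself made up a large part of this sum, at 1249 to 2217 FPKM in NKO and 1151 to 2087 FPKM in WT. The sum is therefore not a measure apart from the members. That of the periportal list was 2731 to 4838 FPKM in NKO and 3826 to 5638 FPKM in WT. They were also the highest livers for 4 of 8 Kupffer cell markers, whose sum was 131 to 267 FPKM in NKO and 106 to 329 FPKM in WT, and for 5 of 8 sinusoidal endothelial markers. Of the neutrophil markers 4 of 8 reached the minimum level, and their list summed to 4.13 to 22.7 FPKM in NKO and 6.13 to 12.3 FPKM in WT. The part of cell makeup, lobular zone or sampling in the levels of the members was not tested.

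No pair of members was correlated across the 9 livers after adjustment. Of 45 pairs, 9 had an unadjusted permutation p under 0.05 for Pearson's r and 3 for Spearman's rho, and 0 passed after adjustment over the pairs (lowest adjusted p = 0.102). For *Adh4* with *Aldh3a2*, r was 0.85 (permutation p = 0.0041, adjusted p = 0.102) and rho 0.52 (permutation p = 0.162), and r was 0.27 without the livers farthest from the *Adh4* median, NKO3 and WT2. The neighbouring genes *Adh1* and *Adh4* had r = 0.88 (permutation p = 0.0374, adjusted p = 0.214) and rho 0.13 (permutation p = 0.744), with r = 0.31 without NKO3 and WT1, the farthest by *Adh1*, and −0.80 without NKO3 and WT2. These relations rest on NKO3 and WT2.
*Aldh1a1* and *Acss2* gave r = 0.69 (permutation p = 0.0429, adjusted p = 0.214) and rho 0.37 (permutation p = 0.336). This became 0.95 without NKO3 and WT2, but −0.44 without NKO4 and WT1, the livers farthest by *Aldh1a1*, on which the relation rests.

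The genes whose pattern over the 9 livers was most like that of each member were listed by Pearson's r as a description, over values that share library and depth. For *Acss2* these were *Pmvk* (r = 0.97), *Nsdhl* (0.95) and *Idi1* (0.94), which all encode enzymes of sterol synthesis, and r was 0.96 to 0.97 for them without NKO3 and WT2. *Pmvk* was at 26.7, 15.0, 38.1 and 16.6 FPKM in NKO2 to NKO5 and 13.6, 13.0, 29.6, 20.9 and 20.3 FPKM in WT, so NKO4 led and WT1 and WT2 trailed as for *Acss2*. For *Adh1* the leading genes were *Lactb* (0.97), *Lamtor1* (0.96) and *Cyb5b* (0.96), for *Adh4* *Ctr9*, *Gm6170* and *Ahsa1* (0.97 to 0.98), and for *Aldh3a2* *Klkb1* (0.98), *Acbd5* and *Fbxo21* (both 0.97).
*Cyp2e1* was most like *Mafg*, *Sac3d1* and *Ids* (r of 0.96), *Aldh2* most like *Ccdc117*, *Oaz1-ps* and *Mtch2* (0.94), and *Adh5* most like *Dip2c*, *Gm43012* and *Dnttip2* (0.93 to 0.95). *Aldh1a1* was led by *Gm27616*, *Gm19209* and *4833418N02Rik* (0.91 to 0.93), and *Aldh1b1* by *Ces2a*, *Ythdc1* and *Zfp661* (0.91 to 0.93). With NKO3 and WT2 left out, r fell to 0.56 for *Adh1* with *Lamtor1* and to 0.57 for *Adh4* with *Gm6170*.

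**Figure D4:**
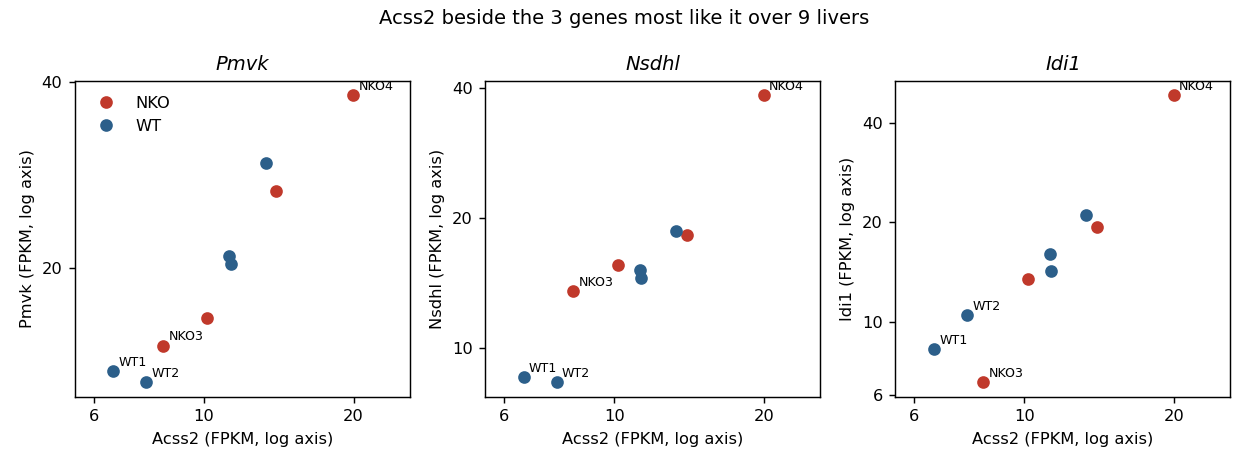
FPKM of *Acss2* (x axis) against *Pmvk*, *Nsdhl* and *Idi1* (y axes), all on log axes, with a point for each of the 4 NKO and 5 WT libraries. NKO4 has the highest values of all 4 genes, and WT1, WT2 and NKO3 are the lowest livers for *Acss2*.

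Other genes of the pathway were counted in 8 lists of 90 genes, of which 81 were tested. By limma 0 of 81 passed at an adjusted p under 0.05, and 4 (4.94%) had an unadjusted p under 0.05, near the 5.9% of all tested genes. Among the other alcohol dehydrogenases, *Adh7*, the retinol-oxidizing class IV enzyme, was at 1.54 to 3.91 FPKM over the 9 livers, *Adhfe1* at 16.5 to 35.2 FPKM, and *Adh6a* and *Adh6b* were below the minimum. Of the 11 tested aldehyde dehydrogenases outside the members, 7 had positive and 4 negative values (median 0.05), and *Aldh3b1* had the smallest p (log2 fold change −0.73, limma adjusted p = 0.844). For catalase and the electron donors of the microsomal route the median of 6 genes was −0.03. *Por*, the reductase that passes electrons to CYP2E1, was lowest in NKO3 (99.97 FPKM) and WT2 (186 FPKM), the livers where *Cyp2e1* was highest, and at 242 to 339 FPKM in the other 7.

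For the SREBP regulators and targets 13 of 16 values were positive, with a median of 0.58, and 1 had an unadjusted p under 0.05. This was *Fasn*, the fatty acid synthase (52.2 against 21.8 FPKM on average, log2 fold change 1.18, limma adjusted p = 0.840, exact permutation p = 0.0635). *Fasn* was at 101 FPKM in NKO3 and 23.0 to 48.8 FPKM in the other NKO livers, and its log2 fold change was 1.07 without NKO3 and WT2. *Insig1*, which holds back SREBP processing when sterol is ample, had 0.81 (adjusted p = 0.870) and was highest in NKO3 and WT2, with 0.63 without them. The sum of the list was 809 to 945 FPKM in NKO and 563 to 831 FPKM in WT over all libraries. *Scd1* alone made up a large part of it, at 287 to 518 FPKM in NKO and 191 to 514 FPKM in WT. The log2 fold change of *Scd1* was 0.26, and 0.01 without NKO3 and WT2. *Acss2*, with 0.35, lay below the median of that list. The other 12 acetate and acetyl-CoA enzymes had a median of −0.00, with *Acly*, the citrate lyase, at 0.66 and *Acaca*, the acetyl-CoA carboxylase, at 0.60, both of which also belong to the SREBP list. These were 0.86 and 0.85 without NKO3 and WT2 and 0.19 and 0.20 in the 6 libraries of higher depth.

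The shuttles that pass the reducing equivalents of cytosolic NADH, such as that made by ADH, into mitochondria were listed with lactate dehydrogenase and had 11 negative values among 12 genes (median −0.15). Their summed level was 759 to 856 FPKM in NKO and 936 to 1032 FPKM in WT, but without *Got1* it was 675 to 724 and 684 to 921 FPKM, which overlap. Only *Got1*, the cytosolic aspartate aminotransferase, had an unadjusted p under 0.05 (111 against 195 FPKM on average, log2 fold change −0.95, limma adjusted p = 0.842, exact permutation p = 0.0397). *Got1* was at 35.1 FPKM in NKO3 and 111 to 272 FPKM in all other livers, and its log2 fold change was −0.66 without NKO3 and WT2. *Slc25a10*, the mitochondrial dicarboxylate carrier, had −0.24 and *Ldha* −0.25 on the log2 scale, with adjusted p-values of 0.844 and 0.890.

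**Figure D5:**
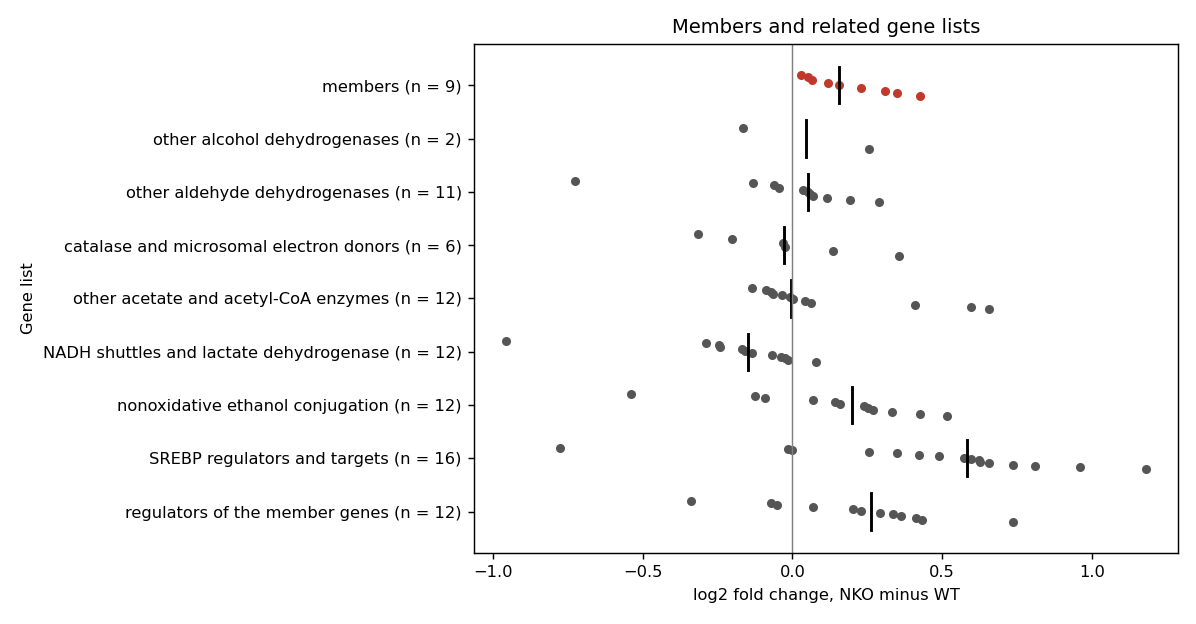
Log2 fold change of NKO minus WT for each tested member (red) and each tested gene of the 8 related lists (grey), with a black line at each list's median. Members lie between 0.03 and 0.43, NADH shuttle genes mostly below 0 and SREBP genes mostly above 0, while no gene shown passed at an adjusted p under 0.05.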

How the data were processed

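Poly(A) RNA of 9 livers with an integrity number above the submitters' minimum was made into stranded libraries, and the reads were mapped with HISAT2 and assembled with StringTie, as the submitters' processing notes and the paper state; versions and genome build are not given in the sources used here. The deposited table holds FPKM computed by the authors, which are not counts, so limma was used and depth is an estimate. With the estimated depth, 38.6% to 46.2% of low values in single-exon genes lay within 0.1 of a whole fragment. The depth was chosen to fit these same values best, so this share is no independent check of it. Absent genes are listed at 0.0001. Columns of the authors' own comparison (fold, log2 ratio, p and q) were not used. Column names gave the group but not the labelled replicate.

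Groups were compared with limma 3.58.1 (R 4.3.3) with a mean-variance trend on log2(FPKM + 0.1), for genes whose mean over the libraries reached 0.5 FPKM. The added 0.1 understates changes of low genes. P-values were adjusted by Benjamini-Hochberg over 12350 genes. The 126 exact permutations allow a smallest p of 0.00794. The paper describes the WT mice as littermate controls, but the labels do not give the cage or litter of each mouse. Litter was therefore not part of the tests. The steps were tested on simulated data. The members, the gene lists (8 pathway lists and 9 marker lists) and the tests were chosen with earlier results of these data known. Some genes of these lists are not reported here and were left out of the counts. Named genes are the members, *Ncf1*, up to 3 genes of each pathway list with the smallest p and the 3 genes most like each member. *Glul*, *Cps1*, *Arg1*, *Adh6a*, *Adh6b*, *Aldh1a7*, *Fcho2*, *Scd1* and *Dbp* were named after their values were seen. Promoters are RefSeq, GRCm38.p6. Alternatives changed the pseudocount, filter, scaling, variance model and libraries. Figures were drawn with matplotlib 3.10.9.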

Additional observations from a re-analysis of the deposited data

Results flagged for a closer look

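In 74 groups of values examined (members, their ratios and related genes, by group), 14 held a library far from the others of its group. The cut-off is passed by about 1 in 20 groups of independent, normally distributed values. The groups here share the same 9 livers, so the count of 14 cannot be set against that rate. Of the members, *Adh1* was at 1797 FPKM in NKO3 against 1004 to 1129 in the other NKO livers, *Adh4* at 57.8 FPKM in NKO3 against 12.4 to 16.4, and *Aldh3a2* at 109 FPKM in WT2 against 53.0 to 64.6 in the other WT livers. *Aldh1a1* was low in WT1, at 88.1 FPKM against 135 to 149.

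Among related genes, NKO3 was high for *Cyb5b* (114 FPKM) and low for *Got1* (35.1 FPKM). WT2 was high for *Adh7* (3.91 FPKM), *Acaca* (12.2 FPKM), *Acly* (57.3 FPKM), *Fasn* (42.8 FPKM) and *Insig1* (40.8 FPKM). WT4 was high for *Nqo1* (17.1 FPKM) and low for *Ldha* (141 FPKM), and NKO5 was high for *Foxa2* (11.0 FPKM).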

How the results depend on the processing

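In 19 alternatives 0 members were called, and 161 of 171 fold changes of single members kept their direction (lowest unadjusted p = 0.0582). The other 10 lay between −0.23 and −0.0023. With a library left out in turn, the log2 fold change was −0.072 to 0.21 for *Adh1*, −0.077 to 0.66 for *Adh4*, −0.0023 to 0.070 for *Aldh2*, −0.17 to 0.24 for *Aldh3a2* and −0.016 to 0.30 for *Cyp2e1*, each lowest without NKO3, and *Aldh3a2* was also negative (−0.015) without WT3. It was 0.17 to 0.37 for *Aldh1a1*, 0.10 to 0.30 for *Aldh1b1* and 0.12 to 0.54 for *Acss2*. In the 6 libraries of higher depth *Aldh2* had −0.0035, *Aldh3a2* −0.23 and *Cyp2e1* −0.0071, and without NKO3 and WT2, an alternative chosen after seeing the data, *Adh1* had −0.037. The cause was not tested. The members' median was −0.0023 (without NKO3) to 0.24 (without WT2). The pathway genes at an unadjusted p under 0.05, 4 with all libraries, numbered 2 without NKO3, 9 without NKO2, 15 without WT2, 3 in the 6 libraries of higher depth and 10 without NKO3 and WT2, where 6.19%, 6.65%, 9.97%, 5.34% and 9.41% of all tested genes passed. With a library left out, the log2 ratio of *Aldh2* to *Adh1* differed between groups by −0.20 to 0.070 and that of *Cyp2e1* to *Adh1* by −0.069 to 0.15, and that of *Acss2* to *Acss1* by 0.34 to 0.90. The first was 0.063 without NKO3 and WT2, and the second −0.13 at higher depth. No paired analysis was possible because the column numbers do not follow the replicate numbers of the labels. The labels also do not state that equal replicate numbers in NKO and WT mark paired mice. Matching columns to replicate numbers would therefore not by itself have given pairs. With 4 and 5 livers, precision is limited to the intervals given for each member.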

Other observations

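Enzymes that can conjugate ethanol without oxidizing it had 9 positive and 3 negative values among 12 tested genes (median 0.20 on the log2 scale). *Ces3b*, a carboxylesterase, had an unadjusted p under 0.05 (26.4 against 18.4 FPKM on average, log2 fold change 0.52, limma adjusted p = 0.824), and NKO3 and WT2 were the highest livers for 5 of the 12. Of 12 transcription factors known to regulate the member genes, 9 had positive values (median 0.26). *Hlf*, a clock-controlled factor, was at 3.89 to 5.25 FPKM in NKO and 2.98 to 3.87 FPKM in WT, groups that did not overlap, as in 2.21% of all tested genes and 1 of 81 tested pathway genes (log2 fold change 0.34, limma adjusted p = 0.839, exact permutation p = 0.0159). NKO3 was the highest liver for *Hlf*, whose log2 fold change was 0.29 without NKO3 and WT2. *Tef*, of the same family, had 0.74 (adjusted p = 0.844), 0.64 without NKO3 and WT2 and 0.14 in the 6 libraries of higher depth. *Dbp*, a further gene of that family, had 0.41, and −0.39 in the 6 libraries of higher depth.

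All 5 tested erythroid genes had lower means in NKO (median −0.85), with sums of 481 to 2084 FPKM in NKO and 998 to 1925 FPKM in WT, and none passed the test. The cholangiocyte list summed to 19.2 to 32.6 FPKM in NKO and 7.68 to 35.9 FPKM in WT, the stellate cell list to 113 to 123 and 95.7 to 131 FPKM, and the sinusoidal endothelial list to 56.4 to 68.7 and 40.6 to 77.1 FPKM.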
